A study of Drosophila melanogaster with 4 samples.

Results

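Isolated binding peaks of Suppressor of Hairless, Su(H), are described here for the Drosophila melanogaster cell line Kc167. A peak of the deposited list was taken as isolated when it lay on 2L, 2R, 3L, 3R, 4 or X, was narrower than 3000 bp, and had no other peak within 20000 bp on either side. Members were thus chosen by the start and end deposited for each peak. These conditions were met by 339 of the 14384 peaks in the list. They were set beside the other 13096 peaks under 3000 bp on the same 6 arms. The rule used position and width. The number, spacing and widths of isolated peaks are therefore given as a description, and score, which the rule did not use, is described without a p-value because the list holds no value per library.

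The list came from chromatin immunoprecipitation and sequencing (ChIP-seq), with 3 Su(H) ChIP libraries and 1 library of input DNA. All were made from Kc167 cells, an established embryo-derived line that the sample titles call late embryonic. The labels call it female with the genotype se/e and name no treatment. Cells were fixed in 1.8% formaldehyde for 15 minutes. The antibody was a rabbit polyclonal against residues 259 to 594 of Su(H). The samples given here are of 1 cell line, with no group in which Notch was activated or Su(H) removed.

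Su(H) is the DNA-binding protein on which the Notch pathway converges and the fly counterpart of mammalian RBPJ. When Notch is cleaved, its intracellular part joins Su(H) and the coactivator Mastermind, and target genes are transcribed. Without the signal, Su(H) bound to Hairless recruits the corepressors Groucho and CtBP. Many known targets, such as the Enhancer of split genes, carry several Su(H) sites close together. Isolation here refers to the spacing of called peaks only. How many Su(H) sites lie within an isolated peak was not tested. Positions are in FlyBase release 5. Genes at these positions and the DNA sequence of the peaks were not analysed here, because no genome or annotation of that release was used.

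Isolated peaks scored higher than the other peaks of the same width class. Their scores ran from 7.86 to 580.14, with 25% under 18.5, a median of 43.9 (exact 95% interval 36.6 to 55.8) and 25% above 113.2. The other peaks ran from 5.66 to 1046.77, with 25% under 11.5, a median of 15.3 (15.1 to 15.4) and 25% above 23.8. The lowest scores of both sets overlapped, and the highest isolated peak stood well under the highest of the others. Intervals of medians and shares here are exact and cover counting error over peaks only. Peaks of 1 list are neighbours on the same chromosomes and not independent, so these intervals may be too narrow.

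More of the isolated peaks were high-scoring. A score of 106.8 or above, which marks the top 10% of the whole list, was reached by 90 isolated peaks, or 26.5% (exact 95% interval 21.9% to 31.6%). Among all 13435 peaks under 3000 bp on the arms the share was 7.03%, and among the other peaks it was 6.52% (6.10% to 6.96%). The lower 50% of the list, with scores of 16.1 or below, held 75 isolated peaks, or 22.1% (17.8% to 26.9%). Among all peaks under 3000 bp that share was 53.1%. Weak calls were thus found among the isolated peaks too, at a lower share than in the list.

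**Figure D1:**
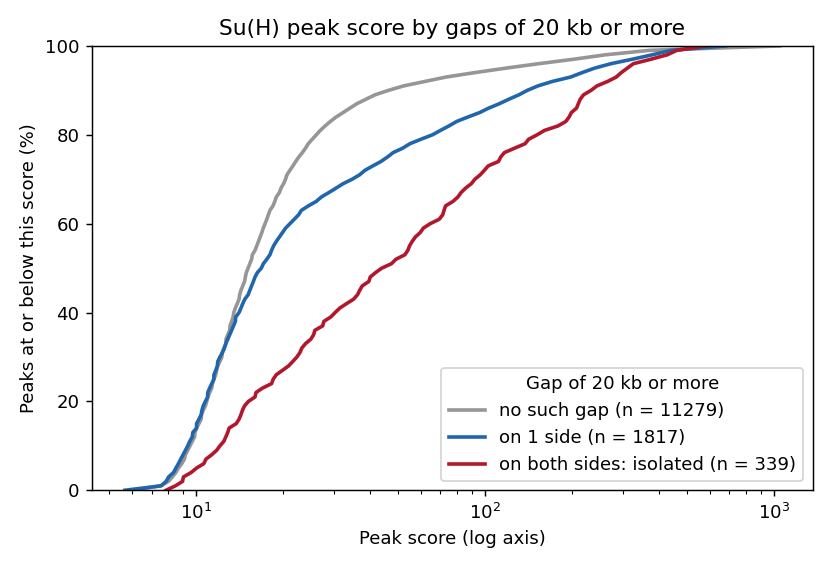
Cumulative share of peaks under 3000 bp (vertical axis, %) by score (horizontal log axis), for peaks with no gap of 20000 bp or more beside them, with such a gap on 1 side, and with such gaps on both sides. The median moved from 15.1 through 16.8 to 43.9, and the curve of the 339 isolated peaks lies to the right of both others over most of the range.

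The score had the values of −log10 of a Poisson p-value, so it can be turned into a fold over background. In the whole list, 92 of 92 often-repeated scores lay on the ladder that whole read counts give against a single mean of 195.927. A fold read from the score in this way is an upper limit where the caller used a higher local background. The median fold was at most 2.15 for isolated peaks (exact 95% interval 2.03 to 2.32) and at most 1.62 for the other peaks (1.62 to 1.63). A fold of 2 could be reached by 194 isolated peaks (57.2%), against 17.1% of all peaks under 3000 bp. A fold of 4 could be reached by 38 isolated peaks (11.2%), against 3.32%. The highest fold of an isolated peak was 6.56, and that of another peak under 3000 bp was 9.22.

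Scores of isolated peaks lay on this ladder more often than those of other peaks. Of the 339, 285 did (84.1%, exact 95% interval 79.7% to 87.8%), against 68.1% of all peaks under 3000 bp and 67.7% of the other peaks (66.9% to 68.5%). With 47 other background means near the fitted one, 1.18% to 12.7% of the isolated peaks fell on a ladder. A score computed against the single fitted mean lies on the ladder, and one computed against another mean lies on it only by chance. Which background the caller used for each peak was not tested. The excess was seen among low scores (82.7% of 75 isolated peaks against 70.3% of 7058 others) and among middle scores (85.1% of 174 against 61.6% of 5184). In the top 10% the shares were 83.3% of 90 and 83.1% of 854. Peaks with a gap of 20000 bp or more on 1 side had a share close to that of the isolated peaks, 81.1% of 1817 (79.2% to 82.8%), and so did the 262 peaks with a nearest gap of 10000 to 20000 bp (82.8%). The folds of the 54 isolated peaks off the ladder are read as upper limits, and some on the ladder may be upper limits too.

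The share of high scores changed gradually from crowded to isolated peaks. Of 11279 peaks with no gap of 20000 bp beside them, 5.37% were in the top 10% of scores (exact 95% interval 4.96% to 5.81%). With such a gap on 1 side the share was 13.6% of 1817 peaks (12.1% to 15.3%). Divided by the gap to the nearest peak, the share was 5.50% below 250 bp and 5.31% from 1000 to 2000 bp. It was 8.85% from 2000 to 5000 bp, 14.9% from 5000 to 10000 bp and 19.8% from 10000 to 20000 bp. The isolated peaks followed with 26.3% of 209 from 20000 to 40000 bp and 26.9% of 130 at 40000 bp or more. The exact intervals of these last 2 groups, and of the one from 10000 to 20000 bp, overlapped.

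**Figure D2:**
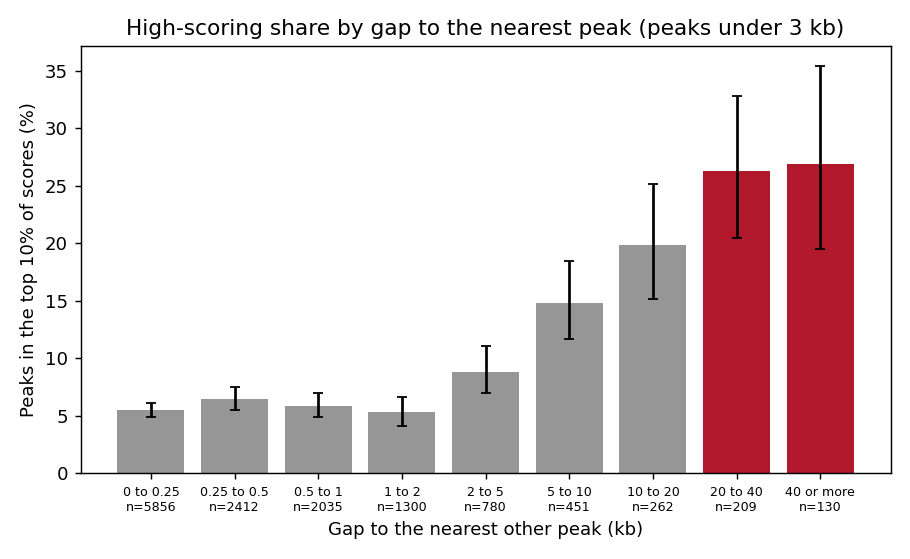
Share of peaks under 3000 bp with a score in the top 10% of the list (vertical axis, %) by gap to the nearest other peak (horizontal axis, kb). Bars are shares with exact 95% intervals and isolated peaks are red. The share stayed between 5.31% and 6.43% up to 2000 bp and reached 26.9% at 40000 bp or more.

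The median score did not follow the gap over its whole range. It was 16.2 for peaks less than 250 bp from a neighbour and 13.3 for those at 1000 to 2000 bp. It then was 21.8 from 5000 to 10000 bp, 26.0 from 10000 to 20000 bp, 36.8 from 20000 to 40000 bp and 55.8 beyond. Among the isolated peaks themselves, score and gap were nearly unrelated (Pearson's r = 0.08, Spearman's rho = 0.11, over 339 peaks of 1 list). The median gap to the nearest peak was 30335 bp for isolated peaks of the lower 50% of scores, 36830 bp for the middle ones and 32780.5 bp for those of the top 10%.

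Isolated peaks were somewhat wider than the others, and they scored higher at matched width too. Their median width was 563 bp (exact 95% interval 511 to 610), against 436 bp (428 to 443). In the band from 600 to 1000 bp, the median score was 61.3 for 67 isolated peaks (exact 95% interval 55.5 to 96.2) and 20.5 for 2344 others (20.1 to 20.9). From 1000 to 1500 bp it was 149.6 for 50 isolated peaks (102.6 to 200.1) and 34.3 for 1073 others (32.7 to 36.2). All 22 isolated peaks from 1500 to 2000 bp were in the top 10% of scores, against 35.2% of 543 others. In the narrowest band, from 200 to 300 bp, the medians were close, at 12.8 for 59 isolated peaks and 11.1 for 3604 others. The medians' intervals did not overlap in any of the 7 width bands.

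**Figure D3:**
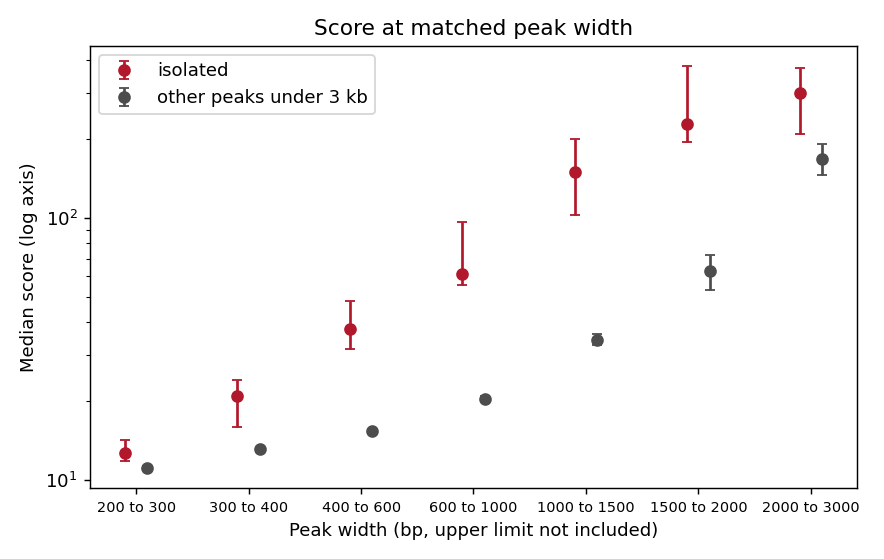
Median score (vertical log axis) of isolated peaks and of other peaks under 3000 bp in 7 bands of peak width (horizontal axis, bp), with exact 95% intervals of the median. Isolated peaks had the higher median in each band, from 12.8 against 11.1 in the narrowest to 299.7 against 167.7 in the widest.

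Put the other way, isolated peaks had a smaller median width within each class of score. Isolated peaks in the top 10% of scores had a median width of 1392.5 bp, and the others in that class 1778.5 bp. Among middle scores the medians were 519.5 and 666 bp, and in the lower 50% they were 272 and 312 bp. Scores differ within a class, so widths at an equal score were not compared. Score and width were correlated across isolated peaks (Pearson's r = 0.78, Spearman's rho = 0.83) and across the others (0.63 and 0.72). Both measures come from the same call of a peak, and how the caller set the width was not tested.

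The highest isolated peak, on 3L from 20722890 to 20724674, scored 580.14 (fold at most 6.56). Its neighbours were 33925 and 38913 bp away and scored 23.88 and 10.21. Both neighbours scored far lower. The second was on 2R from 9508899 to 9511668 (score 504.73), with neighbours of 10.94 and 20.85. Its score was off the ladder, so its fold of 6.08 is read as an upper limit.

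The third to the seventh were on 2L and 3L. On 2L the peak from 12365155 to 12366761 scored 466.79, and the peak from 2129534 to 2131363 scored 466.02. On 3L the peak from 11357454 to 11359187 scored 451.53. They were 1607, 1830 and 1734 bp wide. Next came 2 more on 2L, from 21898745 to 21900009 (449.26) and from 12617622 to 12619141 (446.23). The former was 1265 bp wide and had strong neighbours, with scores of 295.91 and 632.3 at 69453 and 118204 bp. The peak from 2129534 had neighbours of 13.86 and 309.32, and the peak from 12617622 had neighbours of 263.89 and 13.65.

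The last of the 10 were on 3L from 15692341 to 15695120 (420.74), then on 2R from 15517861 to 15520415 (417.78) and on 2L from 2450448 to 2451972 (379.07). This 3L peak also had strong neighbours, of 292.58 and 242.39. The peaks of the 10 not named here with a strong neighbour had none above 50.42. Of the 10 highest isolated peaks, 9 were on the ladder and none was on 3R, 4 or X. On X the highest reached 374.76, from 16110524 to 16112169. On 3R it reached 314.73, from 27135450 to 27138400, which was also the widest isolated peak of all at 2951 bp. On 4 it reached 49.85, from 827672 to 828790.

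At the other end, the lowest-scoring isolated peak lay on X from 1407587 to 1408106 and scored 7.86 (fold at most 1.42). The next peak on its right was 102191 bp away and scored 365.48. The narrowest were a pair of 201 bp, one on 3L from 5582516 to 5582716 (score 16.04) and one on 3R from 22737985 to 22738185 (9.17).

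The gap between an isolated peak and its nearest neighbour ran from 20241 to 247958 bp, with a median of 33937 bp. It was at least 50000 bp for 88 peaks (26.0%) and at least 100000 bp for 14. The most remote peak was on 3L from 13220409 to 13222146, with 312607 bp free on its left and 247958 bp on its right. It scored 309.32, or at most 4.72-fold, so the peak with the widest free sequence on both sides was a high one. The next most remote lay on X from 12097319 to 12098105 (248.02) and on 3L from 17231193 to 17231721 (25.73). They were followed by X from 14314522 to 14314984 (99.34) and 3L from 13659984 to 13661099 (71.69). These 5 peaks spanned scores from 25.73 to 309.32, and all 5 were on the ladder.

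Just inside the limit of 20000 bp were peaks on X from 10408895 to 10409457 (gap 20241 bp, score 13.25) and from 8679904 to 8680116 (20411 bp, 13.05). A peak on 3R from 13601928 to 13602478 (20339 bp, 40.67) was between them. Just outside were a peak on X from 9198948 to 9200810 (19930 bp, 92.56) and a pair on 3R, from 26737825 to 26738516 (19913 bp, 45.23) and from 11851247 to 11851999 (19895 bp, 66.5). The 3 just outside scored higher than the 3 just inside.

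The peaks nearest to isolated ones scored higher than the neighbours of other peaks. By the rule, such a neighbour has a gap of 20000 bp or more on at least 1 side, and it can itself be isolated. Among peaks under 3000 bp, the median score was 16.8 with such a gap on 1 side and 43.9 on both sides. The difference between neighbours is therefore not a separate result. The nearest neighbour of an isolated peak had a median score of 26.5 (exact 95% interval 21.6 to 39.9), and that of another peak under 3000 bp 15.6 (15.5 to 15.9). An isolated peak outscored both of its neighbours in 132 cases, or 38.9% (33.7% to 44.4%), against 30.1% of all peaks under 3000 bp. It was lower than both in 89 cases (26.3%, 21.6% to 31.3%), against 33.4% of the other peaks.

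Isolated peaks were lower than the best peak of a crowded region. When peaks less than 20000 bp apart were joined into groups, the arms held 1288 groups, of which 348 were single peaks (the 339 and 9 of 3000 bp or more). The median score of single peaks was 48.0. The highest score in a group had a median of 94.4 over 173 pairs, 113.4 over 232 groups of 3 to 5 peaks and 477.6 over 132 groups of more than 30. The typical score in a group went the other way, from 55.2 in pairs and 18.7 in groups of 3 to 5 to 15.3 in groups of more than 30. A peak of the top 10% was present in 28.4% of single peaks (23.8% to 33.5%), 45.1% of pairs (37.5% to 52.8%) and 91.7% of groups of more than 30 (85.6% to 95.8%). A maximum over more peaks is higher by construction. In pairs both measures lay above the 48.0 of single peaks, and in larger groups that value lay between them.

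**Figure D4:**
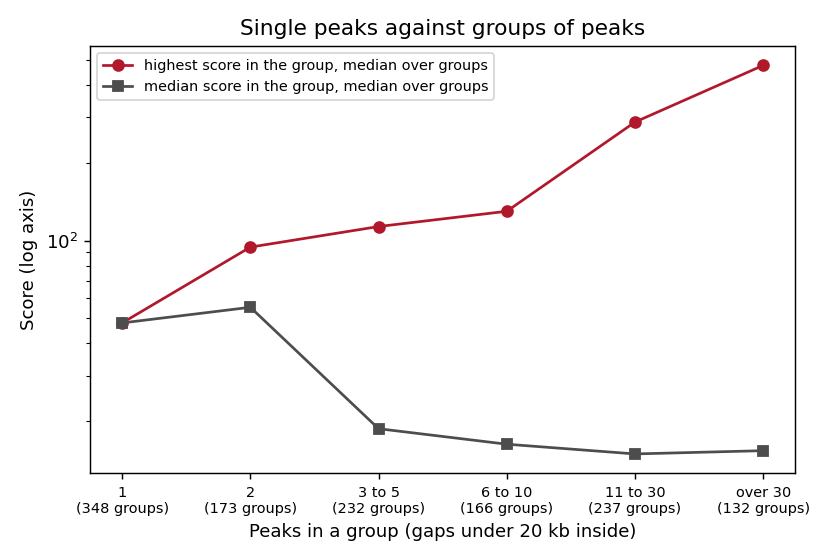
Score (vertical log axis) of groups of peaks joined across gaps under 20000 bp, by the number of peaks in the group (horizontal axis). Circles are the highest score in a group and squares the median score in a group, each as a median over groups. Both start at 48.0 for single peaks and stand at 94.4 and 55.2 in pairs. They part to 477.6 and 15.3 in groups of more than 30.

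By arm, isolated peaks were most numerous on 3L and 2L. There were 89 on 3L, 85 on 2L, 62 on 3R, 54 on X, 43 on 2R and 6 on 4. They made up 4.20% of the peaks under 3000 bp on 3L (exact 95% interval 3.39% to 5.15%) and 3.88% on 2L (3.11% to 4.78%). On X the share was 2.25% (1.70% to 2.93%), on 3R 1.78% (1.37% to 2.28%) and on 2R 1.36% (0.99% to 1.83%). The intervals of 3L and 2L overlapped each other and lay above those of X, 3R and 2R. On 4 the share was 6.25%, with an interval of 2.33% to 13.1% that reached those of 3L, 2L and X. Together 2L and 3L held 51.3% of isolated peaks and 31.6% of the others. Peaks per Mb were 75.9 on 4, 89.0 on 3L, 98.7 on 2L, 111.8 on X, 129.3 on 3R and 154.1 on 2R. The rule favours arms with fewer peaks, so the shares by arm are a description. Gaps of 20000 bp or more covered 75.5% of the length of 3L and 75.4% of 2L, against 70.1% of X, 68.0% of 3R, 66.4% of 4 and 59.9% of 2R.

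The higher scores were seen on each long arm. The median score of isolated and other peaks was 37.4 and 16.7 on 2L, 48.3 and 15.1 on 2R, and 49.4 and 16.4 on 3L. It was 52.9 and 14.5 on 3R and 38.0 and 15.1 on X. On these 5 arms the exact intervals of the 2 medians did not overlap. The share in the top 10% was 31.8% of isolated peaks on 2L, 27.8% on X, 27.0% on 3L, 23.3% on 2R and 22.6% on 3R, and the intervals of all 5 overlapped. The share on the ladder was 91.9% on 3R, 88.9% on X, 88.8% on 3L, 79.1% on 2R and 75.3% on 2L. Among other peaks on 2L it was 44.5%, the lowest of the 6 arms.

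Arm 4, the small dot chromosome, gave 6 isolated peaks. From left to right they scored 33.11, 11.11, 49.85, 41.56, 10.75 and 36.61. They were 635, 428, 1119, 927, 367 and 926 bp wide. None reached the top 10%, which with 6 peaks allows a share of up to 45.9% (exact interval). Of the 90 other peaks of arm 4, 2 did. Their median of 34.9 had an exact interval of 10.8 to 49.9 that overlapped that of the other peaks (14.5 to 19.5 around 16.8).

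Along the arms, isolated peaks were spread thinly and widely. Of 123 bins of 1 Mb with a peak, 112 held at least 1 isolated peak and none held more than 8. Over the 116 complete bins of the 5 long arms the median was 3. The 58 bins with fewer than the median of 113.5 peaks under 3000 bp held 200 isolated peaks, and the 58 richer bins held 120. The rule favours sequence with few peaks, so this split is a description. In 94 of the 112 bins (83.9%) the median score of the isolated peaks exceeded that of the other peaks of the same bin. Bins in which the isolated peaks scored higher were thus the majority, but in some bins the median of the isolated peaks was the score of 1 peak.

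Stretches poor in peaks, on 2L from 2 to 10 Mb and on 3L from 6 to 17 Mb, were chosen in an earlier analysis for their low counts. On 2L 40 of 293 peaks under 3000 bp there were isolated (13.7%), against 45 of 1896 on the rest of the arm (2.37%). On 3L the counts were 46 of 385 (11.9%) and 43 of 1732 (2.48%). Isolation means few peaks nearby, so higher shares in these stretches follow from how both were chosen. In the stretch of 3L isolated peaks had a median score of 72.3, and 97.8% were on the ladder, against 82.3% of the other peaks there. On the rest of 3L they had a median of 25.7, with 79.1% on the ladder against 59.1%. On 2L the medians were 36.8 inside and 39.6 outside. In the stretch of 2L isolated peaks were on the ladder no more often than the others (87.5% against 89.3%), and on the rest of 2L the shares were 64.4% and 38.4%. Outside both stretches, isolated peaks still had higher medians than the others, which stood at 16.6 on 2L and 15.5 on 3L.

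Isolated peaks also followed one another. Of the 339, 180 belonged to 74 runs of 2 or more isolated peaks with no other peak between them. The neighbour of an isolated peak already has a gap of 20000 bp or more on their shared side. The rule itself thus favours such runs, and they are given as a description. Whether there were more of them than the rule produces was not tested. The longest run held 9 peaks on 2L, from 3895810 to 4892194, a span of 996.4 kb. In order, their scores were 114.38, 33.17, 309.99, 111.02, 112.45, 190.19, 37.39, 9.0 and 35.22. High and low peaks were mixed over this span, and the highest, from 4196817 to 4198097, had 127985 and 84537 bp free beside it. All but the second peak were on the ladder. The bin from 4 to 5 Mb of 2L held 12 peaks under 3000 bp, of which 8 were isolated.

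The next longest run held 8 peaks on 3L, from 23717601 to 24433666, towards the centromeric end of the arm as release 5 gives it. Their scores were 8.67, 43.88, 60.7, 86.84, 13.91, 13.79, 224.97 and 136.12. The first 4 were on the ladder and the last 4, from 24119790 on, were off it. The folds of the high pair at the end of this run are therefore read as at most 4.05 and 3.24. The other runs held 2 to 4 peaks.

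**Figure D5:**
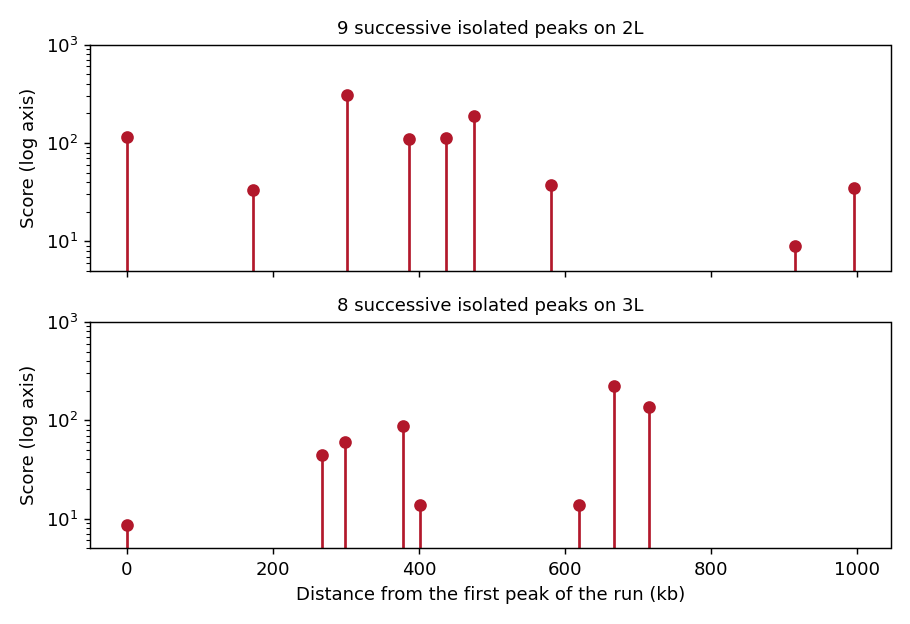
Scores (vertical log axis) of the peaks in the 2 longest runs of successive isolated peaks, by distance from the first peak of the run (horizontal axis, kb). The 9 peaks on 2L ran from 9.0 to 309.99 and the 8 on 3L from 8.67 to 224.97, with high and low peaks mixed in both.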

How the data were processed

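The authors deposited a single peak list, with a start, an end and 1 score for each peak. Per the file headers its coordinates are those of FlyBase release 5 and its caller was MACS. Tools named in the submitters' processing notes are BWA, MACS2 and CASAVA (1.7.0.2 and 1.7.0.3), and the build is BDGP5. Neither the threshold nor the libraries behind the list are stated in the sources at hand, and depth is unknown.

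Gaps were counted in bases between the edges of neighbouring peaks. A first or last peak of an arm needed 1 gap only, which applied to 1 member. Arm length was the end of its last peak. The background mean was fitted on scores under 40 shared by at least 25 peaks, for means from 10 to 500 (tolerance 0.015), then refined on all peaks (0.0075). A score s stands for the count k with s = −log10 P(X > k). For 3 sets of simulated scores, 14384 were drawn per set and the lowest and highest were left out. The highest scores of the list were thus not covered. On these sets the fit erred by at most 0.003. It put 6.68% to 8.22% of scores from other backgrounds on the ladder. Intervals are exact (Clopper-Pearson, or order statistics for medians) at 95%.

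Members, stretches and comparisons were chosen with earlier results of these data known. Named peaks are the 10 highest, the highest per arm, the 5 most remote, the lowest, the widest and narrowest, and the 3 nearest the limit on each side. The gene table at hand is of release 6 and was not used. Software was SciPy 1.17.1, NumPy 2.4.6, pandas 2.3.3 and matplotlib 3.10.9 under Python 3.11.15.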

Additional observations from a re-analysis of the deposited data

Results flagged for a closer look

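Peaks outside the 6 arms enter none of the comparisons above. Of 471 such peaks, 242 met the same limits of spacing and width (51.4%), 1 of them as the sole peak of its scaffold. Their scores ran from 6.5 to 500.88 with a median of 47.8, and 48 were in the top 10% of the list. Most lay on U and Uextra, which join unplaced scaffolds end to end, so distances there are not distances on a chromosome.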

How the results depend on the processing

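Across 7 alternatives, 6 results were recomputed. Of the 42 values, 33 stayed within 1.5 times the count or within the exact interval of the value reported. With a distance of 10000 bp there were 601 isolated peaks, with a median score of 36.2 and 44.4% on 2L or 3L. With 40000 bp there were 130, with 56.9% on 2L or 3L. When only the upper 50% of scores counted as peaks, the median score of isolated peaks was 60.3 (24.9 for the others), the median width 766 bp (748 bp) and the share on 2L or 3L 41.5% (35.7%). After merging peaks under 1000 bp apart the median width was 734 bp (697 bp). The difference in width was smaller under both of these, and the cause was not tested. The share in the top 10% ran from 23.6% to 31.0% over the 7 alternatives, against 6.25% to 13.7% of the other peaks. No paired analysis was possible because single libraries have no values in the list, and for that reason no replicate could be left out. Depth of the libraries is unknown, so the weakest site that could be called is too.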

Other observations

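The arms held 9 peaks of 3000 bp or more that lay 20000 bp or more from any other. Their scores ran from 318.81 to 950.53 with a median of 456.1, and their widths from 3118 to 7540 bp. All 9 were in the top 10% of scores, as were 87.2% of the 478 peaks of that width, and all 9 were on the ladder. The highest was on 2L from 14408200 to 14411495. The widest was on X from 1510298 to 1517837 and lay 102191 bp from the lowest-scoring isolated peak.

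Scores repeated among the isolated peaks on the ladder. Of these, 131 shared 54 scores with at least 1 other isolated peak, and at most 5 shared the same score.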
